A study of Mus musculus with 9 samples.

Results

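The 6 genes of potassium channels, Kcnn4, Kcnn3, Kcnq5, Kcnk5, Kcnab1 and Kcnf1, were followed through RNA sequencing of white gastrocnemius, the pale part of a calf muscle, from Gaa knock-out and wild-type mice. They were selected for their difference between these genotypes and are 6 of the 18062 genes in the deposited table, so their knock-out against wild-type values are given as a description, with no test. Gaa encodes acid alpha-glucosidase, the enzyme that breaks down glycogen in lysosomes, and the mouse without it is a model of Pompe disease, a glycogen storage disorder of muscle. The knock-out group held 5 libraries from mice of 5 months in which exon 6 of Gaa had been disrupted, with loxP sites in introns 5 and 6. The wild-type group held 4 libraries, 2 from mice of 5 months and 2 from mice of 6 months, but their columns, named wt1 to wt4, do not say which is which, and the 2 ages were taken as 1 group. The colony was of mixed BL6/129j background and inbred by brother-sister matings for more than 20 generations. No label names the mouse behind a library, so the spread in every test is that between libraries.

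Potassium channels let potassium leave the cell and so pull the membrane voltage back toward rest after an action potential. In muscle fibres, voltage-gated channels shape the action potential, inward rectifiers hold the resting voltage, calcium-activated channels answer to calcium release, and auxiliary subunits set how the pore-forming subunits gate and reach the membrane. Adult fast fibres are known for their ATP-sensitive and inward rectifier channels, while some calcium-activated channels are known from fibres that have lost their nerve and from immune cells.

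Levels are in RPKM, reads scaled to transcript length and library size, summed over the transcript lines of a gene. Totals over all lines were 349239 to 374056 RPKM in the knock-out libraries and 315337 to 327517 RPKM in the wild-type libraries. Where low values move in steps of 1 read, a level of 1 RPKM on a transcript of 1 kilobase came to about 17.7 to 37.6 reads in knock-out libraries and 37.2 to 64.3 reads in wild-type libraries. Gaa was lower in all 5 knock-out libraries, at 3.44 ± 0.204 RPKM against 49.4 ± 4.48 RPKM in the 4 wild-type libraries (SD; log2 fold change -3.80, SE 0.07; adjusted p = 1.8e-11 by limma over all genes tested; exact two-sided permutation p = 0.0079, the smallest that 126 splits allow). Skeletal muscle genes such as Ckm, the muscle creatine kinase, stood at 16582 ± 1835 RPKM in the knock-out and 13451 ± 707 RPKM in the wild type, so both groups carried skeletal muscle, which does not tell its white part from its red part. Fold changes below are log2 differences of RPKM + 0.1, knock-out minus wild-type, and this scale understates the change of genes with low values.

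The promoters of 3 of the genes are printed because they stand at the ends of the range on this log2 scale. Kcnn4 and Kcnk5 had the largest positive fold changes and Kcnf1 the largest negative one. By the ratio of means, Kcnn3 at 9.09 stood above Kcnk5 at 8.38, so the choice of Kcnk5 rests on the scale. RefSeq windows on GRCm38.p6, from 250 bases before the start site to 50 after it, were matched to all 6 genes in 9 windows. Capitals mark CACGTG, the E-box letters that the TFEB and MITF family of lysosomal transcription factors is known to bind. The windows are chr7:24370013-24370312, plus strand, for Kcnn4, chr14:20181733-20182032, minus strand, for Kcnk5 and chr12:17176839-17177138, minus strand, for Kcnf1.
Kcnn4: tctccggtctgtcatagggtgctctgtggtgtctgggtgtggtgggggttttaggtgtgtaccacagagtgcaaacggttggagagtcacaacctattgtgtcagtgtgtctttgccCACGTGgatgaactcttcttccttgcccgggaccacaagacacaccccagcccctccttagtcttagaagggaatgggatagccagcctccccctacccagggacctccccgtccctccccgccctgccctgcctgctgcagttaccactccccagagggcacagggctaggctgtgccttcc
Kcnk5: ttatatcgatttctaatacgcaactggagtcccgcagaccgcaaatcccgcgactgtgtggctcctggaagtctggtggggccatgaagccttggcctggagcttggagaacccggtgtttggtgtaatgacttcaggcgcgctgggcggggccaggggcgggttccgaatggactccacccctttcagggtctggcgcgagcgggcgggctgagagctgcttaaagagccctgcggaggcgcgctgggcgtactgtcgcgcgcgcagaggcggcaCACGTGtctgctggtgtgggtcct
Kcnf1: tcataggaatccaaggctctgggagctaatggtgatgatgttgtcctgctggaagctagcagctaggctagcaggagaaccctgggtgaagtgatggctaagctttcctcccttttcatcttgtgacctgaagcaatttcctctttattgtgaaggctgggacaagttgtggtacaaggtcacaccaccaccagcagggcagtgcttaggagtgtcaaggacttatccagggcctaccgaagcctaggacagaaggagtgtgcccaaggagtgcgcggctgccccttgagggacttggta
On either strand, CACGTG was found in 4 of the 9 windows: the Kcnn4 window (first base at position -133), the Kcnk5 window (position 27) and 2 of the 3 windows of Kcnab1 (positions -162 and -45). It was in 7.15% of the 32851 windows of this length in the RefSeq table. The 2 Kcnab1 matches belong to start sites 370 and 78719 bases from the start of the deposited Kcnab1 transcript. The GC-box letters GGGCGG were found in 3 of the 9 windows, those of Kcnn4, Kcnk5 and 1 of Kcnab1 that lies 160172 bases from the deposited transcript's start, against 35.7% of all windows. TATAAA was in 1 Kcnab1 window, the one 78719 bases away, against 13.6% of all windows. Neither CAGCTG, the E-box letters of the myogenic factors, in 16.3% of all windows, nor TGACTCA, the AP-1 letters, in 5.2%, was found in any of the 9. The Kcnf1, Kcnn3 and Kcnq5 windows held none of these 5 motifs. Positions count from 1 at the start site and from -1 before it, no matches overlapped, and a match describes letters only.

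Kcnn4 encodes KCa3.1, the intermediate-conductance calcium-activated potassium channel, which is opened by calcium bound to calmodulin on its tail and is best known from lymphocytes, macrophages, red blood cells and proliferating fibroblasts. In the 5 knock-out libraries Kcnn4 stood at 4.73, 5.17, 3.68, 4.74 and 3.85 RPKM, against 0.082, 0.148, 0.176 and 0.118 RPKM in the 4 wild-type libraries. The lowest knock-out library lay far above the highest wild-type library, and the groups did not overlap. Means were 4.43 ± 0.639 RPKM in the knock-out and 0.131 ± 0.0405 RPKM in the wild type (SD), a ratio of 33.8, with a log2 fold change of 4.30 (SE 0.15). An estimated 130 to 367 reads stood behind each knock-out value and 5.95 to 22.4 reads behind each wild-type value, so the size of the ratio rests on few wild-type reads. Kcnn4 had the largest fold change of the 6 genes.

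Kcnn3 encodes SK3, the small-conductance channel KCa2.3, which also senses calcium through calmodulin and is known to appear in skeletal muscle after denervation. The knock-out libraries had 1.05, 1.31, 1.23, 1.09 and 1.4 RPKM of Kcnn3, and the wild-type libraries had 0.141, 0.135, 0.114 and 0.146 RPKM. Every knock-out library lay above every wild-type library, and the groups did not overlap. The mean was 1.22 ± 0.146 RPKM in the knock-out and 0.134 ± 0.0142 RPKM in the wild type, a ratio of 9.09, with a log2 fold change of 2.49 (SE 0.14).

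Kcnk5 encodes TASK-2, a two-pore-domain leak channel that opens as the outside turns alkaline and is best known from kidney. Kcnk5 was at 2.14, 1.88, 2.38, 1.76 and 2.04 RPKM in the knock-out libraries and at 0.175, 0.353, 0.239 and 0.206 RPKM in the wild-type libraries. The wild-type library wt2 was the highest of its group and was still well below every knock-out library. Means of 2.04 ± 0.239 RPKM in the knock-out and 0.243 ± 0.0776 RPKM in the wild type gave a ratio of 8.38 and a log2 fold change of 2.66 (SE 0.15). Of the 10 genes of two-pore-domain channels in the table, Kcnk5 was the single one above the filter on low values, a mean of 0.5 RPKM over the 9 libraries. It passed only through the knock-out libraries, in which it was selected as high. Its wild-type mean of 0.243 RPKM lay under the filter, so nothing is read from this.

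Kcnq5 encodes Kv7.5, a subunit of M-type channels, which open slowly near the resting voltage and dampen repeated firing. Its levels were 5.55, 4.87, 5.27, 5.47 and 6.29 RPKM in the knock-out libraries, against 1.97, 1.82, 1.56 and 1.86 RPKM in the wild-type libraries. This was the best measured of the 6 genes, with an estimated 628 to 1393 reads in each knock-out library and 469 to 682 in each wild-type library. The groups did not overlap, with means of 5.49 ± 0.519 RPKM in the knock-out and 1.8 ± 0.175 RPKM in the wild type, a ratio of 3.05 and a log2 fold change of 1.55 (SE 0.09). Kcnq5 was also the single member with a mean above 0.5 RPKM in both groups. The other 5 passed the filter through the group in which they were high.

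Kcnab1 encodes Kvbeta1, an auxiliary subunit that binds Kv1 channels inside the cell and speeds their inactivation. It was lower in the knock-out, at 0.227, 0.409, 0.283, 0.337 and 0.402 RPKM, against 2.19, 2.13, 1.42 and 1.1 RPKM in the wild type. No knock-out library reached the lowest wild-type library, and the wild-type libraries spread more widely than the knock-out libraries. Means were 0.332 ± 0.0779 RPKM in the knock-out and 1.71 ± 0.538 RPKM in the wild type, with a log2 fold change of -2.03 (SE 0.21). The wild-type mean was 5.15 times the knock-out mean.

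Kcnf1 encodes Kv5.1, a silent subunit that forms no channel alone but joins Kv2 subunits and changes how they gate. The knock-out libraries had 0.0966, 0.214, 0.212, 0.52 and 0.122 RPKM of Kcnf1, against 5.35, 4.58, 1.56 and 2.15 RPKM in the wild-type libraries. Every wild-type library stood above every knock-out library, but both groups were spread: ko4 lay apart from the other knock-out libraries, and wt1 and wt2 lay above wt3 and wt4. Means were 0.233 ± 0.169 RPKM in the knock-out and 3.41 ± 1.84 RPKM in the wild type, a wild-type mean 14.6 times as high, and the log2 fold change was -3.36 (SE 0.39).

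The 2 genes with lower levels in the knock-out shared this order among the wild-type columns. For Kcnf1 the mean of wt1 and wt2 was 4.97 RPKM and that of wt3 and wt4 1.86 RPKM. For Kcnab1 these means were 2.16 and 1.26 RPKM. Against wt3 and wt4 alone the log2 fold change of Kcnab1 was -1.66, and against wt1 and wt2 alone it was -2.41. That of Kcnf1 was -2.66 against wt3 and wt4 alone and -4.05 against wt1 and wt2 alone. The columns differed in other genes too: lymphocyte markers summed to 0.167 and 0.276 RPKM in wt1 and wt2 and to 1.02 and 1.26 RPKM in wt3 and wt4, mostly through Cd3e (0.0373, 0.0551, 0.711 and 0.832 RPKM in wt1 to wt4), and endothelial markers to 50 and 60 RPKM in the first pair and to 82.7 and 76.4 RPKM in the second. The 4 genes higher in the knock-out showed no such division, with wt1 and wt2 against wt3 and wt4 means of 0.115 and 0.147 RPKM for Kcnn4 and 1.9 and 1.71 RPKM for Kcnq5. The age behind each wild-type column is not given in its name, and the part of age in these values was not tested.

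**Figure D1:**
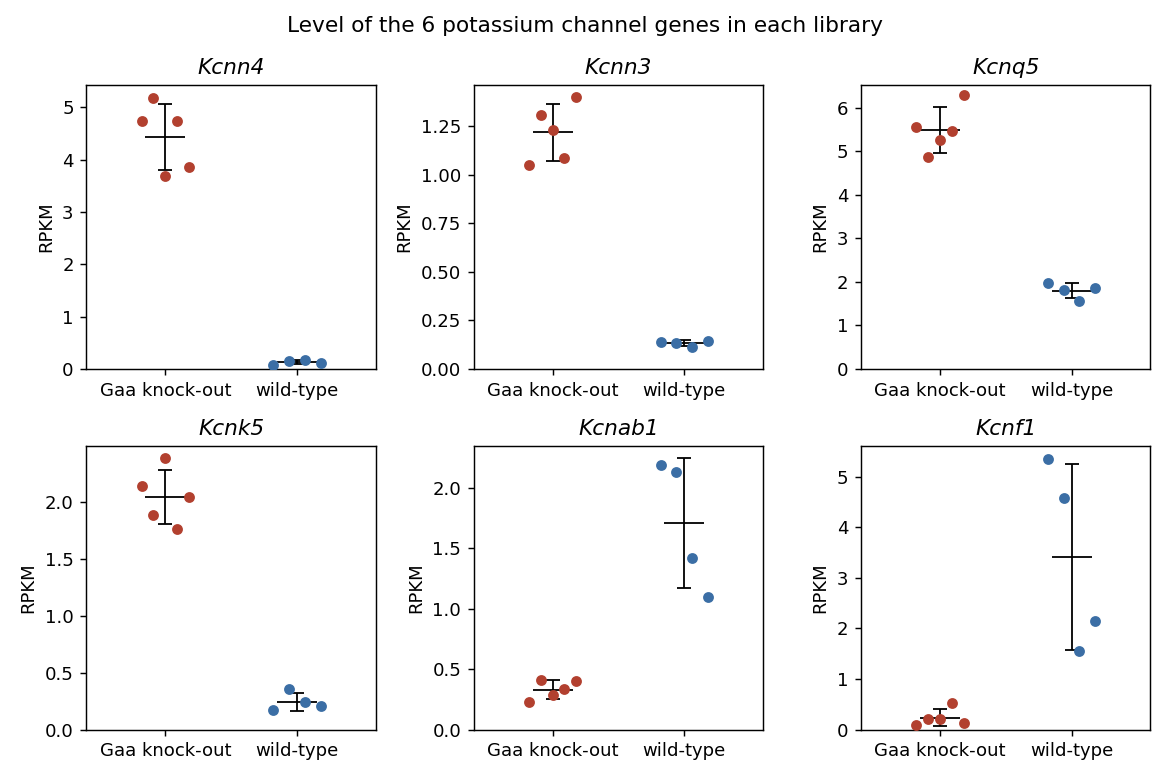
RPKM (vertical axes, from 0) of the 6 channel genes in each of 5 Gaa knock-out libraries (left in each panel) and 4 wild-type libraries (right). Points are libraries, and black bars are the mean and SD. Kcnn4, Kcnn3, Kcnq5 and Kcnk5 are higher in every knock-out library, and Kcnab1 and Kcnf1 are lower in every one, with a wide wild-type spread for both.

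Across the table, 11032 genes passed the filter, and 51.8% of them were past an adjusted p of 0.05 (limma, Benjamini-Hochberg), 37.0% higher and 14.8% lower in the knock-out. Centring each library on its median gave 2769 genes higher and 2758 lower, in place of 4081 and 1632, and the median gene lay at 0.12 on the log2 scale before centring. In 30.9% of all genes tested every knock-out library was above every wild-type library, and in 11.4% every one was below. The 6 channel genes, 4 of the first kind and 2 of the second, were selected on this contrast, so nothing is read from their count. Relative to the median gene their log2 fold changes were 4.18 for Kcnn4, 2.53 for Kcnk5, 2.36 for Kcnn3, 1.43 for Kcnq5, -2.16 for Kcnab1 and -3.48 for Kcnf1. Each of the 6 kept its sign under all alternative settings that could be run. With groups that do not overlap, leaving out libraries or changing the pseudocount could not have reversed it.

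Among the 89 potassium channel genes in the table, ordered by mean RPKM, the places of the 6 describe the contrast on which they were selected. Kcnn4 held place 12 in the knock-out and place 36 in the wild type, Kcnn3 places 18 and 35, Kcnk5 places 15 and 27, and Kcnq5 places 10 and 15. In the other direction, Kcnab1 held place 27 in the knock-out and place 17 in the wild type, and Kcnf1 places 31 and 14. Neighbours in the order are close: in the knock-out, Kcnn4 at 4.43 ± 0.639 RPKM stood between Kcnma1 at 5.18 ± 0.705 RPKM and Kcnn1 at 3.5 ± 0.309 RPKM, and its libraries overlapped those of both. Likewise Kcnk5 at 2.04 ± 0.239 RPKM was level with Kcnj8 at 2.06 ± 0.498 RPKM in the knock-out. In the wild type, Kcnf1 at 3.41 ± 1.84 RPKM overlapped its neighbours Kcnj8 at 3.46 ± 0.444 RPKM and Kcnq5 at 1.8 ± 0.175 RPKM. The genes at the head of the order stayed well above the 6: Kcna7, Abcc9 and Kcnj11 had 39.1, 39.2 and 29.9 RPKM in the knock-out and 43.1, 32.9 and 30.2 RPKM in the wild type.

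**Figure D2:**
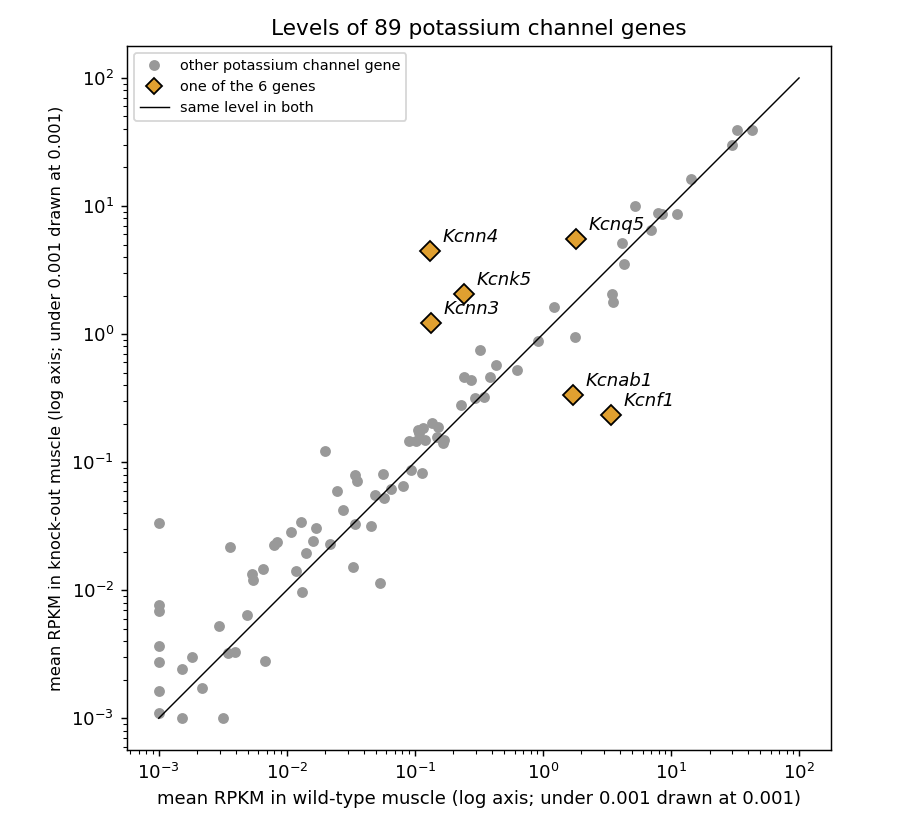
Mean RPKM of 89 potassium channel genes in the knock-out (vertical log axis, 5 libraries) against the wild type (horizontal log axis, 4 libraries), with means under 0.001 drawn at 0.001. Diamonds are the 6 genes, and the line marks the same level in both groups. Kcnn4, Kcnn3, Kcnk5 and Kcnq5 lie above the line and Kcnab1 and Kcnf1 below it, while genes such as Kcna7 and Kcnj11 lie near it.

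Kcnn4 and Kcnq5 are each deposited as 2 transcript lines. Both Kcnn4 transcripts have 9 exons and the same coding sequence of 1275 bases in the GENCODE M21 annotation, and they differ at their ends: one begins 36 bases later, and its last exon, which lies wholly after the coding part, begins 85 bases earlier. This transcript with the longer last exon took 95.9%, 90.1%, 98.7%, 92.7% and 88.8% of Kcnn4 RPKM in the knock-out libraries. In wt1, wt2, wt3 and wt4 it took 10.6%, 10.6%, 77.1% and 10.6%. In wt1, wt2 and wt4 its values stood for an estimated 0.644, 1.18 and 1.18 reads, so the repeated share of 10.6% is not a count of separate reads of that transcript, and the split between the lines could not be measured at this depth in the wild type. Its level was 4.13 ± 0.564 RPKM in the knock-out and 0.0432 ± 0.0619 RPKM in the wild type. The other line measured 0.306 ± 0.186 RPKM in the knock-out and 0.0878 ± 0.0398 RPKM in the wild type, and its libraries overlapped between the groups.

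The 2 Kcnq5 transcripts, of 6975 and 6562 bases, differ in exon 10 of the longer one, a wholly coding exon of 57 bases, or 19 codons, that the other lacks. They also differ in length outside this exon, so the shares of the 2 lines do not rest on it alone. The exon is printed because only 1 of the lines has it.
Kcnq5 exon 10, chromosome 1: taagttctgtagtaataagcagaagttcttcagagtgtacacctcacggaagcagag
The line with this exon took 48%, 50%, 39.9%, 51.6% and 50.3% of Kcnq5 RPKM in the knock-out libraries, against 67.9%, 58%, 58.6% and 58.4% in the wild-type libraries. The shares did not overlap between the groups, and they averaged 48.0% ± 4.69 in knock-out libraries and 60.7% ± 4.77 in wild-type libraries (SD). Its level was 2.64 ± 0.399 RPKM in the knock-out and 1.1 ± 0.176 RPKM in the wild type, and that of the line without the exon 2.85 ± 0.314 RPKM in the knock-out and 0.704 ± 0.0755 RPKM in the wild type. Both lines were thus higher in the knock-out, the one without the exon by more. How reads shared by both transcripts were divided is not given in the sources used here. Kcnq5 and Kcnab1 have exons that overlap, by up to 167 and 83 bases, exons of the genes Gm26580 and A330015K06Rik on the opposite strand, and without a stated use of strand such reads cannot be told apart. The exons of the other 4 genes overlap no other gene in GENCODE M21.

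**Figure D3:**
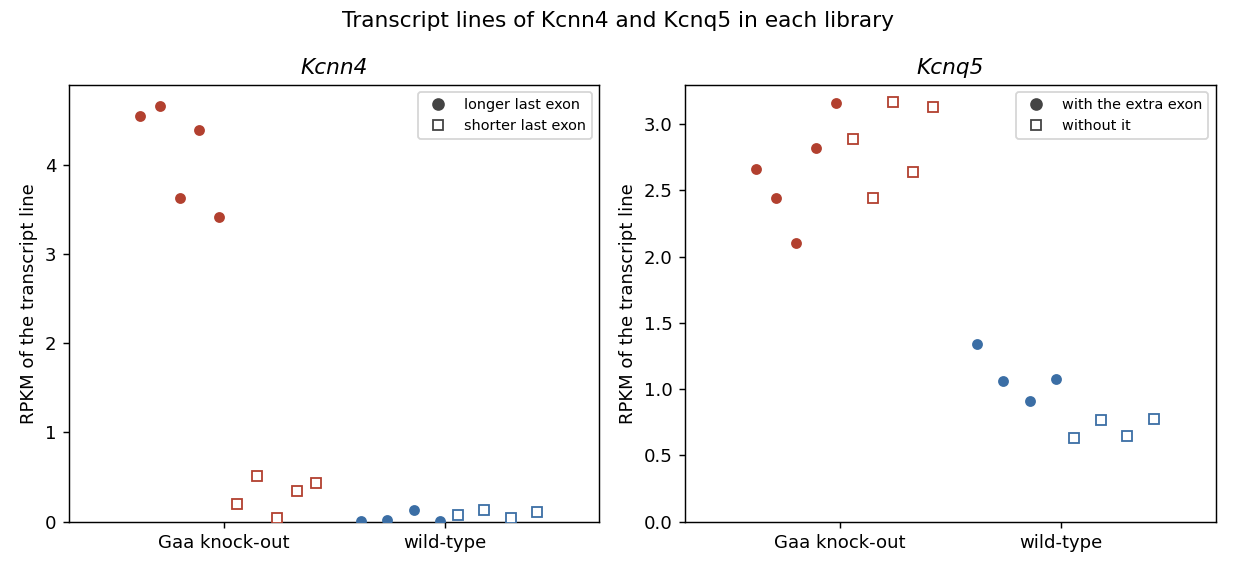
RPKM (vertical axes, from 0) of the 2 deposited transcript lines of Kcnn4 (left panel) and Kcnq5 (right panel) in each library, knock-out in red on the left and wild type in blue on the right of each panel. Filled circles are the Kcnn4 transcript with the longer last exon and the Kcnq5 transcript with exon 10, and open squares are the other transcript of each gene. Knock-out Kcnn4 is almost wholly in the filled circles, at 4.13 ± 0.564 RPKM, while both Kcnq5 lines are higher in the knock-out.

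The rest of the family was taken from lists of known channel genes. Of 97 genes on lists of calcium- and sodium-activated, voltage-gated, inward rectifier and two-pore-domain channels and of auxiliary subunits, 89 were in the table and 25 passed the filter. None of the 64 under the filter had a mean of 0.5 RPKM in either group. Leaving out the 6 selected genes, 19 were tested: 5 rose, 4 fell and 10 did not pass the threshold, so 47.4% were called beside 51.8% of all genes, with a median log2 fold change of -0.01 beside 0.12. Some genes under the filter also had groups that did not overlap, such as Kcng1, a silent subunit, at 0.123 RPKM in the knock-out and 0.0197 RPKM in the wild type, named after its values were seen and not tested.

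Among the other calcium-activated channels, 1 of 3 tested rose and 1 fell. Kcnma1, the large-conductance BK channel, rose to 5.18 ± 0.705 RPKM in the knock-out, against 4.13 ± 0.264 RPKM in the wild type (log2 fold change 0.31, SE 0.09, limma adjusted p = 0.015). Kcnn1, the SK1 relative of Kcnn3, fell to 3.5 ± 0.309 RPKM in the knock-out, against 4.26 ± 0.264 RPKM in the wild type (-0.28, SE 0.08, limma adjusted p = 0.011). Both calls were lost without wt1 and wt2, at adjusted p = 0.085 for Kcnma1 and 0.074 for Kcnn1, and that of Kcnma1 also when libraries were centred (0.11). Kcnn2, the SK2 relative, measured 0.878 ± 0.0891 RPKM in the knock-out and 0.911 ± 0.172 RPKM in the wild type (limma adjusted p = 0.83). Within this family the order of levels differed between genotypes: the knock-out order was Kcnn4, Kcnn1, Kcnn3 and Kcnn2 from high to low, and the wild-type order Kcnn1, Kcnn2, Kcnn3 and Kcnn4. Kcnn4 and Kcnn1 overlapped in the knock-out, and Kcnn3 and Kcnn4 in the wild type.

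Among the voltage-gated channels other than Kcnq5 and Kcnf1, 2 of 8 tested rose and 2 fell. Kcna5, the Kv1.5 delayed rectifier, fell to 0.957 ± 0.194 RPKM in the knock-out, against 1.77 ± 0.486 RPKM in the wild type (-0.80, SE 0.19, limma adjusted p = 0.0044), and this call was lost without wt3 and wt4 (adjusted p = 0.056).

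Kcna7, a Kv1 channel of muscle and the highest of the 89 channel genes in the wild type, measured 39.1 ± 2.23 RPKM in the knock-out and 43.1 ± 2.45 RPKM in the wild type (-0.14, SE 0.06), and missed the threshold (limma adjusted p = 0.06). It passed as lower when libraries were centred (adjusted p = 0.0013) or without ko2 (0.019). Kcng4, another silent subunit that joins Kv2, measured 8.7 ± 0.97 RPKM in the knock-out and at 7.85, 8.14, 13.2 and 15.6 RPKM in the wild type (-0.30, SE 0.19, limma adjusted p = 0.19). Here wt3 and wt4 were the high libraries, the reverse of Kcnf1. Against wt3 and wt4 alone its log2 fold change was -0.72 (limma adjusted p = 4.4e-04), and against wt1 and wt2 alone it was 0.11 (adjusted p = 0.38).

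The ATP-sensitive potassium channel pairs a Kir6 pore with a sulfonylurea receptor, and its genes gave mixed values. Kcnj11, the Kir6.2 pore of muscle, had 29.9 ± 2.17 RPKM in the knock-out and 30.2 ± 2.93 RPKM in the wild type (-0.01, SE 0.08, limma adjusted p = 0.89), and its sign changed between settings. Kcnj8, the Kir6.1 pore best known from vessels, fell to 2.06 ± 0.498 RPKM in the knock-out, against 3.46 ± 0.444 RPKM in the wild type (-0.74, SE 0.15, limma adjusted p = 0.0013). Markers of endothelium moved beside it: 7 of 12 fell, beside 14.8% of all genes, and none rose, and they summed to 36.1 to 64.3 RPKM in the knock-out and 50 to 82.7 RPKM in the wild type, with none at 0 in any library. Of 9 smooth muscle and pericyte markers, 4 rose and 1 fell, so 55.6% were called beside 51.8% of all genes. The part of these cell types in the Kcnj8 value was not tested, and in bulk tissue fewer cells of a type and less RNA per cell cannot be told apart. Abcc8, the receptor SUR1, rose to 0.754 ± 0.11 RPKM in the knock-out, against 0.32 ± 0.0134 RPKM in the wild type (1.02, SE 0.14, limma adjusted p = 8.4e-05). Abcc9, the receptor SUR2 of muscle, rose to 39.2 ± 3.1 RPKM in the knock-out, against 32.9 ± 1.63 RPKM in the wild type (0.25, SE 0.06, limma adjusted p = 0.0072), a call lost when libraries were centred (0.12) and without wt1 and wt2 (0.087). Kcnj12, the Kir2.2 inward rectifier, measured 16.3 ± 1.94 RPKM in the knock-out and 14.3 ± 1.43 RPKM in the wild type (0.18, SE 0.09, limma adjusted p = 0.13).

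**Figure D4:**
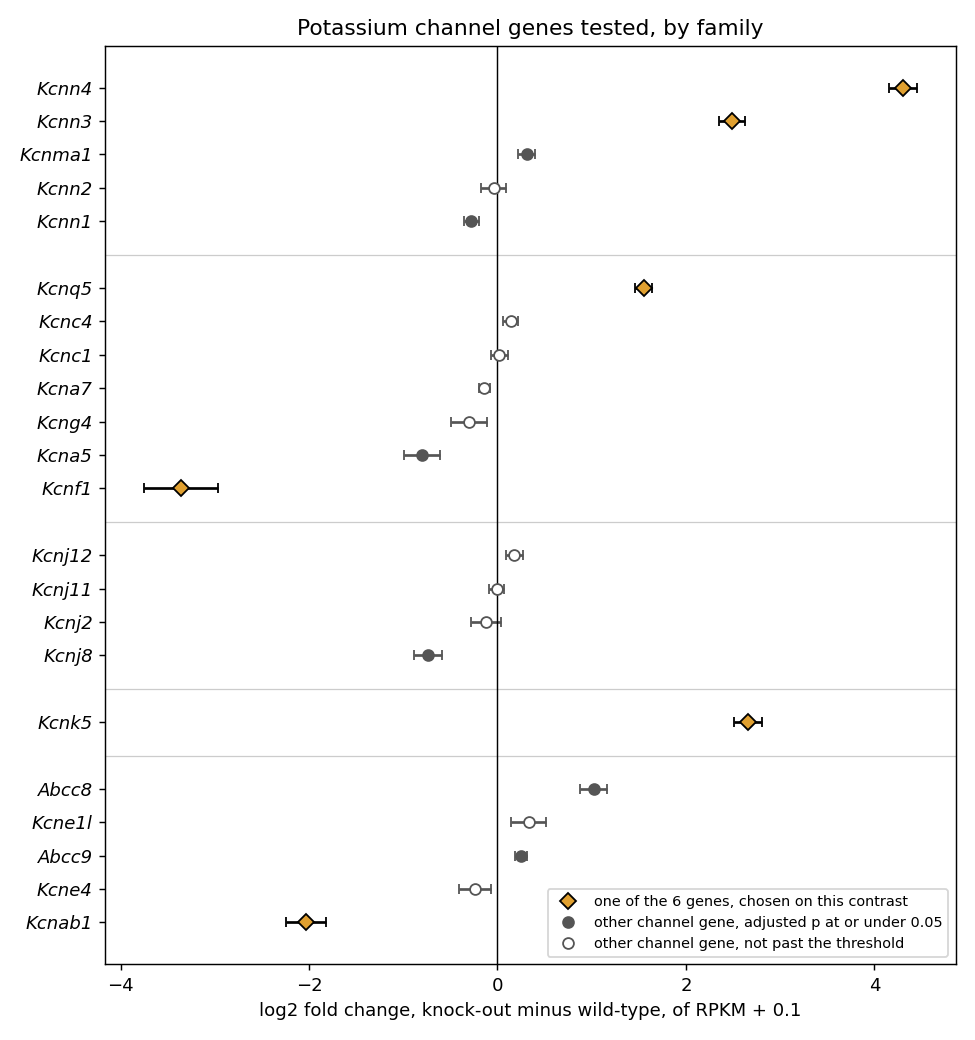
Log2 fold change of RPKM + 0.1, knock-out minus wild-type (horizontal axis), with SE bars, of 22 of the 25 potassium channel genes that passed the filter. Families run from top to bottom as calcium-activated, voltage-gated, inward rectifier, two-pore-domain and auxiliary, diamonds are the 6 selected genes, and filled and open circles are other genes past and not past an adjusted p of 0.05. The selected genes run from -3.36 (Kcnf1) to 4.30 (Kcnn4), and the others drawn lie between -0.80 (Kcna5) and 1.02 (Abcc8).

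Other proteins that bear on the excitability of the fibre were taken from a list of 17 genes, of which 15 were tested, 6 rose and 5 fell, so 73.3% were called beside 51.8% of all genes. Scn4a, the sodium channel of adult fibres, fell to 49.6 ± 3.81 RPKM in the knock-out, against 73.7 ± 3.29 RPKM in the wild type (-0.57, SE 0.06, limma adjusted p = 1.8e-05). Fxyd1, a regulator of the sodium pump, measured 201 ± 18 RPKM in the knock-out and 185 ± 12.9 RPKM in the wild type (limma adjusted p = 0.2). The whole list summed to 1058 to 1222 RPKM in the knock-out and 1074 to 1193 RPKM in the wild type, ranges that overlap.

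Kcnn3 is known from denervated muscle, and genes known to rise after denervation moved in these libraries: of 13 tested, 10 rose, beside 37.0% of all genes, and none fell, with a median log2 fold change of 1.59 beside 0.12 for all genes. Chrnd, a subunit of the acetylcholine receptor, rose to 9.41 ± 0.861 RPKM in the knock-out, against 0.551 ± 0.142 RPKM in the wild type (3.89, SE 0.13, limma adjusted p = 1.6e-09). Ncam1, a cell adhesion molecule, rose to 5.9 ± 0.375 RPKM in the knock-out, against 0.847 ± 0.107 RPKM in the wild type (2.67, SE 0.09, limma adjusted p = 1.5e-09). Sln, the sarcolipin that slows the calcium pump, rose to 31.1 ± 7.6 RPKM in the knock-out, against 2.0 ± 0.629 RPKM in the wild type (3.92, SE 0.23, limma adjusted p = 1.3e-07). Gadd45a, a stress-response gene, rose to 29.3 ± 2.91 RPKM in the knock-out, against 9.69 ± 1.93 RPKM in the wild type (1.6, SE 0.12, limma adjusted p = 9.2e-07). The list summed to 125 to 136 RPKM in the knock-out and 43.2 to 46.8 RPKM in the wild type. Of the Schwann cell and nerve markers, 0 of 6 tested passed (limma; 0 had an unadjusted p under 0.05), and their sums overlapped at 22.9 to 53.6 RPKM in the knock-out and 21.4 to 54.9 RPKM in the wild type. Nefl and Nefh were at 0 in at least 1 library. Nefm, a neurofilament gene under the filter and not tested, was higher in every knock-out library, at 0.0344 to 0.0698 RPKM in the knock-out and 0.00817 to 0.013 RPKM in the wild type. The denervation list was chosen with earlier results of these data known. Whether the Kcnn3 level has to do with a loss of nerve supply was not tested.

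Kcnn4 is also a channel of blood cells, macrophages and fibroblasts, and the markers of these cells are given beside it. Of 13 macrophage markers tested, 11 rose, beside 37.0% of all genes, and none fell, summing to 29.2 to 49.7 RPKM in the knock-out and 11.5 to 16.9 RPKM in the wild type, with none at 0 in any library. Cd68, a lysosomal protein of macrophages, rose to 6.82 ± 0.969 RPKM in the knock-out, against 0.865 ± 0.268 RPKM in the wild type (2.88, SE 0.18, limma adjusted p = 1.8e-07). Ctss, the protease cathepsin S, rose to 6.38 ± 1.56 RPKM in the knock-out, against 1.82 ± 0.545 RPKM in the wild type (limma adjusted p = 2.4e-05), and Mpeg1 to 1.92 ± 0.414 RPKM in the knock-out, against 0.382 ± 0.0563 RPKM in the wild type (limma adjusted p = 1.0e-06). The 2 macrophage markers that did not pass were Cd163 (log2 fold change 0.43, limma adjusted p = 0.16) and Mrc1 (0.37, limma adjusted p = 0.14). Both were named after their values were seen. Of 11 lymphocyte markers, Cd3e alone passed the filter, at 1.31 ± 0.204 RPKM in the knock-out and 0.409 ± 0.422 RPKM in the wild type (limma adjusted p = 0.0084), and Cd3d, Cd3g, Cd4, Cd8a, Cd2, Cd79a, Ms4a1 and Lck were among those at 0 in at least 1 library. The 11 summed to 1.48 to 1.85 RPKM in the knock-out and 0.167 to 1.26 RPKM in the wild type, and most of each knock-out sum was Cd3e. Of 10 fibroblast markers 3 rose and none fell, a share of 30% beside the 37.0% of all genes called higher, with sums of 296 to 395 RPKM in the knock-out and 194 to 285 RPKM in the wild type. Red blood cell markers were on the other side, with 5 of 6 lower, beside 14.8% of all genes, and sums of 138 to 225 RPKM in the knock-out and 267 to 292 RPKM in the wild type. The part of these cell types in the Kcnn4 level was not tested.

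Markers of slow fibres also differed: all 9 rose, beside 37.0% of all genes, with a median log2 fold change of 1.25. Only 3 of the 9 had groups that did not overlap. Their sums of 226 to 512 RPKM in the knock-out and 75.4 to 230 RPKM in the wild type overlapped, with a wide spread within each group. Myl2, a slow myosin light chain, rose to 78.4 ± 25.1 RPKM in the knock-out, against 34.6 ± 16.1 RPKM in the wild type (limma adjusted p = 0.0075). Of 9 markers of fast fibres and muscle as a whole, 2 rose and none fell, a share of 22.2% beside the 37.0% of all genes called higher, and their sums were 89665 to 102081 RPKM in the knock-out and 84048 to 90796 RPKM in the wild type. Of 9 smooth muscle and pericyte markers, 4 rose and 1 fell, so 55.6% were called beside 51.8% of all genes. Their sum of 2294 to 2679 RPKM in the knock-out and 1151 to 1478 RPKM in the wild type was mostly Des, which skeletal fibres also make. Rgs5, a pericyte gene, was the 1 that fell, to 12.8 ± 2.14 RPKM in the knock-out, against 36.1 ± 7.18 RPKM in the wild type (limma adjusted p = 1.3e-05). Cspg4 of the same list rose to 2.49 ± 0.353 RPKM in the knock-out, against 0.622 ± 0.206 RPKM in the wild type (limma adjusted p = 6.1e-06). Adipocyte markers fell in 4 of 8 cases, beside 14.8% of all genes, with sums of 205 to 318 RPKM in the knock-out and 251 to 394 RPKM in the wild type. The part of fibre type and of these cells in the 6 channel levels was not tested.

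**Figure D5:**
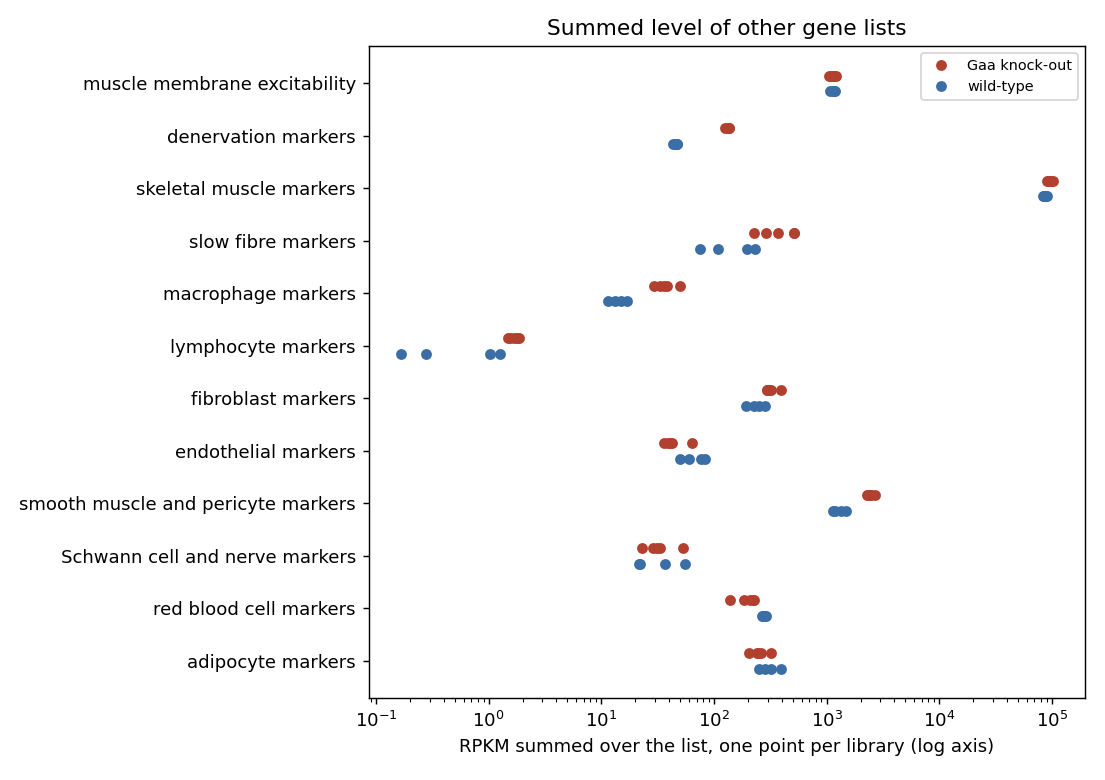
RPKM summed over each of 12 gene lists (horizontal log axis), with 1 point per library, knock-out in red above wild type in blue. Denervation markers (125 to 136 RPKM in the knock-out, 43.2 to 46.8 RPKM in the wild type) and macrophage markers (29.2 to 49.7 RPKM in the knock-out, 11.5 to 16.9 RPKM in the wild type) part the groups, while excitability and nerve lists overlap.

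The genes whose pattern over the 9 libraries was most like that of each channel gene were found by the smallest root mean square difference of log2(RPKM + 0.1), each gene taken less its own wild-type mean. For Kcnn4 they were Dusp4, a phosphatase of MAP kinases (difference 0.26), and Lingo1, a membrane protein known from neurons (0.31). Dusp4 ranged over 5.9 to 6.73 RPKM in the knock-out and 0.152 to 0.376 RPKM in the wild type. For Kcnn3 they were Park2, the ubiquitin ligase parkin (0.10), and Fyb, an adaptor of immune cells (0.18). Park2 ranged over 9.32 to 11.2 RPKM in the knock-out and 1.63 to 1.69 RPKM in the wild type, and it was also second nearest to Kcnk5 (0.20), after Tal2, a basic helix-loop-helix factor (0.20). For Kcnq5 the nearest were Tmem37, a transmembrane protein (0.12), at 39.3 to 48.0 RPKM in the knock-out and 12.8 to 18.2 RPKM in the wild type, and Serpinb6a, a protease inhibitor (0.12), at 491 to 588 RPKM in the knock-out and 177 to 199 RPKM in the wild type.

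For the 2 genes lower in the knock-out, the nearest patterns held the same order among the wild-type columns. Kcnab1 was nearest to Shc2, a signalling adaptor (0.16), which had 0.6 to 0.925 RPKM in the knock-out libraries and 5.12, 4.81, 2.53 and 2.2 RPKM in the wild-type libraries, and then to Mettl11b (0.25). Kcnf1 was nearest to Odf3l2 (0.42) and Dkk3, a secreted protein of the Dickkopf family (0.50). Odf3l2 ranged over 1.43 to 2.81 RPKM in the knock-out and at 33.6, 29.8, 15.2 and 15.6 RPKM in the wild type. Dkk3 ranged over 0.211 to 0.421 RPKM in the knock-out and at 6.22, 6.94, 1.97 and 2.01 RPKM in the wild type. In all 3, wt1 and wt2 were the high columns, as for Kcnf1. The distances were taken over wt1 to wt4 too, so genes with this order were favoured by the choice, and nothing is read from it. They describe 9 libraries that share 1 contrast.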

How the data were processed

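Per the labels' protocols, total RNA was taken with Trizol and entered the Illumina TruSeq preparation. The authors deposited 1 table of RPKM values with 23665 transcript lines and 1 column per library. Per the submitters' processing notes, the build was mm9 and the tools TopHat 1.3.2, Bowtie 0.12.7.0 and Partek 6.6. What each tool did, and how strand and low values were treated, is not given in the sources used here.

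Lines were summed per symbol to 18062 genes, with symbols turned into dates restored on 36 of 37 lines. Genes with a mean of at least 0.5 RPKM were compared on the log2(RPKM + 0.1) scale by limma 3.58.1 under R 4.3.3 (eBayes with trend, two-sided, Benjamini-Hochberg over 11032 genes, threshold 0.05), 5 knock-out against 4 wild-type libraries. The step was tested on simulated data. RPKM are no counts, so no count model was used. Reads were estimated from the steps of low values: of the values that came to 5 reads or fewer, 70.3% to 74.1% fell no more than 0.1 from a whole read, beside 20% for an even spread. Such estimates cover counting only.

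The 6 genes and all lists were chosen with earlier results of these data known, so no set test was run. Of the listed channel genes, 8 were not analysed here. Named are Gaa, the 6 genes, of the other channel genes past the threshold the 10 with the largest change (9 passed) and the 5 with the highest mean, the 2 nearest patterns of each of the 6, and of each other list the 2 highest and the 2 with the smallest p. Some genes that this rule names are not reported here. Kcnn2 was named outside this rule, after its values were seen, to complete its family. Promoters are from RefSeq (GRCm38.p6), and transcript structures from GENCODE M21, used for names and lengths only because the files' build differs.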

Additional observations from a re-analysis of the deposited data

Results flagged for a closer look

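In 34 groups of 4 or 5 libraries, of Gaa, the 6 selected genes and 10 other channel genes, 2 single libraries stood apart from the rest of their group by Dixon's test, which by chance happens in about 5% of groups. Kcnf1 was at 0.52 RPKM in the knock-out library ko4, while the other 4 knock-out libraries had 0.0966 to 0.214 RPKM. This library was still far below the lowest wild-type library, at 1.56 RPKM. Kcnj8 was at 2.93 RPKM in ko2, while the other knock-out libraries had 1.7 to 1.99 RPKM. In the same library endothelial markers summed to 64.3 RPKM, against 36.1 to 42.0 RPKM in the other 4 knock-out libraries. Smooth muscle and pericyte markers, mostly Des, also had their highest sum there, at 2679 RPKM against 2294 to 2488 RPKM in the other 4. So did Schwann cell and nerve markers, at 53.6 RPKM in ko2 against 22.9 to 33.2 RPKM in the other 4, so ko2 did not differ in vessel markers alone. What sets these libraries apart was not tested.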

How the results depend on the processing

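Each of the 6 genes kept its sign under every alternative run (19 settings, or 18 for Kcnn3 and Kcnab1, which a filter of 1 RPKM removes). Their groups did not overlap, so settings that left out libraries or changed the pseudocount could not have reversed the sign. For 5 of them the log2 fold change moved most with the pseudocount, and Kcnq5 moved most when the higher of its transcript lines was taken alone (1.19). With a pseudocount of 1 in place of 0.1 they were 2.26 for Kcnn4, 0.96 for Kcnn3, 1.29 for Kcnk5, 1.21 for Kcnq5, -1.0 for Kcnab1 and -1.75 for Kcnf1, and with 0.01 they were 5.01, 3.09 and 3.06 for the first 3. Gaa stayed between -3.95 and -3.50. Over all genes, 4665 to 6272 were called, against 5713. Quantile normalization gave 2644 higher and 3056 lower, and centring 2758 lower. Without a filter on low values, 24 channel genes were called in place of 15, and 18 outside the 6 in place of 9, of which 13 were higher in place of 5. Only 3 outside the 6 were called higher with centring, with quantile normalization or without wt1 and wt2. Kcnj11 changed sign: it was 0.08 without wt3 and wt4, and leaving out 1 library at a time gave -0.07 to 0.04. Kcng4 was 0.11 without wt3 and wt4. Over all alternatives the limma adjusted p ran from 4.7e-04 to 0.056 for Kcna5, 0.012 to 0.11 for Kcnma1, 5.6e-04 to 0.074 for Kcnn1, 0.003 to 0.24 for Abcc9, 8.4e-04 to 0.19 for Kcna7 and 4.4e-04 to 0.54 for Kcng4. Beyond the construction of each setting, the cause was not tested. No paired analysis was possible because the wild-type columns do not carry the replicate numbers of the labels. Few reads limit wild-type Kcnn4, Kcnn3 and Kcnk5 and knock-out Kcnab1 and Kcnf1, and the split of Kcnn4 into transcripts. For Kcnk5 an estimated 22.1 to 52.1 reads stood behind each wild-type value.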
